A study of Mus musculus with 89 samples.

Results

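The 10 genes described here encode transporters of amino acids and short peptides, Slc15a1, Slc7a7, Slc7a8, Slc7a9, Slc3a1, Slc3a2, Slc6a19, Slc1a1, Slc1a5 and Slc38a2, listed by symbol and present in both count tables of the series (10 of 27538 genes counted in clumps and of 23379 counted in single cells). Levels of these genes were compared between crypt, mid-villus and villus tip clumps of each mouse, and between the cell types of single-cell libraries. Clumps are incompletely dissociated fragments of the mouse jejunal epithelium in which neighboring cells stay attached, and they were sorted by DNA content and sequenced with MARS-seq, a plate-based protocol that tags each captured mRNA 3′ end with a unique molecular identifier (UMI). The mice were C57bl6 males labelled 3 months old, with no treatment or transgene named in the labels. The clump table holds 27 plates of 4n pairs, from each of mice 1 to 5, and 14 plates of larger clumps (h4n) from mice 1, 4 and 5. Single cells came from mice 1 to 4 of a second table on 44 plates, some sorted with gates that include CD24, and 3 plates of mouse 2 there are labelled 4 months. The numbering of animals starts anew in that table, and no mouse was matched between clumps and single cells. Mouse 6, with 4 plates labelled h2n, was left out of the comparisons and added to them as an alternative.

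Dietary protein reaches the enterocyte as short peptides and free amino acids. Slc15a1 (PepT1) brings in short peptides with protons at the brush border, Slc6a19 (B0AT1) brings in neutral amino acids with sodium, and Slc7a9 together with its heavy chain Slc3a1 brings in cystine and dibasic amino acids in exchange for neutral ones. Slc1a1 carries glutamate and aspartate, and Slc1a5 exchanges neutral amino acids including glutamine. At the basolateral membrane the light chains Slc7a7, which exports dibasic amino acids, and Slc7a8, an exchanger of neutral amino acids, each pair with the heavy chain Slc3a2. Slc38a2 is a sodium-coupled carrier of neutral amino acids. Enterocytes are born in the crypt and move up the villus over their lifetime, so a position along the axis is also a stage of the cell's life.

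In the GRCm38 annotation (GENCODE), Slc15a1 (ENSMUSG00000025557) lies at chr14:121459621-121505252 on the minus strand, and Slc7a7 (ENSMUSG00000000958, chr14:54369442-54417780) and Slc7a8 (ENSMUSG00000022180, chr14:54722209-54781946) lie on the same strand, 304 kb apart. Slc7a9 (ENSMUSG00000030492) lies at chr7:35448796-35466036 and Slc1a5 (ENSMUSG00000001918) at chr7:16781340-16798274, both on the plus strand. Slc3a1 (ENSMUSG00000024131) is at chr17:85028376-85064236 (plus), Slc3a2 (ENSMUSG00000010095) at chr19:8706882-8723369 (minus), Slc6a19 (ENSMUSG00000021565) at chr13:73679745-73704865 (minus), Slc1a1 (ENSMUSG00000024935) at chr19:28835049-28913960 (plus) and Slc38a2 (ENSMUSG00000022462) at chr15:96687392-96699730 (minus). Slc7a7, Slc3a1, Slc6a19 and Slc1a1 overlap counted genes on the other strand (Oxa1l, Prepl, Slc6a19os, and both Gm5822 and 4430402I18Rik, respectively). The study's methods state that the counting was set to the strand of the library.

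Promoter windows (250 bases before to 50 bases after the start of a transcript, RefSeq, GRCm38.p6) were matched by symbol for 9 of the 10 genes, and Slc1a5 had none. The 4 shown belong to the apical genes that rose most from crypt to villus clumps (Slc15a1, Slc6a19 and Slc3a1) and to the gene that differed between villus tip and mid-villus (Slc7a8). They lie at chr14:121505205-121505504 (minus), chr13:73692587-73692886 (minus), chr17:85028097-85028396 (plus) and chr14:54781837-54782136 (minus), and are written 5′ to 3′ on the strand of the gene, with capitals for matches to the motifs searched. The Slc6a19 window lies inside the GENCODE gene.
Slc15a1: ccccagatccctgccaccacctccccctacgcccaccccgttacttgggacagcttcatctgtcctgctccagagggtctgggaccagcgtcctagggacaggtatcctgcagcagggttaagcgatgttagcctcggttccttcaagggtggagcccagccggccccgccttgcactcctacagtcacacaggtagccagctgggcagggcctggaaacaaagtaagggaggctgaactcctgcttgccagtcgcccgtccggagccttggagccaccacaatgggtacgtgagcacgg
Slc6a19: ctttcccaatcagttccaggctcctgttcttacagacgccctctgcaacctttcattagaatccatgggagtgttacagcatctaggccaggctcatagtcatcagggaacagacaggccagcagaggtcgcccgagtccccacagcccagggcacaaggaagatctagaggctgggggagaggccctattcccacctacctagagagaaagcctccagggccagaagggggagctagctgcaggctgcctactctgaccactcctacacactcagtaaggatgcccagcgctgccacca
Slc3a1: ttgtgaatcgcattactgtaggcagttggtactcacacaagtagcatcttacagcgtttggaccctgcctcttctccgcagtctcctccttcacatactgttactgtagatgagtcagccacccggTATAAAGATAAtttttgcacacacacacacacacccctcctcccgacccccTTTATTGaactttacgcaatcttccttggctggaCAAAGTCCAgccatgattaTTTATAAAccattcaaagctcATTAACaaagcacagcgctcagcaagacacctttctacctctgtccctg
Slc7a8: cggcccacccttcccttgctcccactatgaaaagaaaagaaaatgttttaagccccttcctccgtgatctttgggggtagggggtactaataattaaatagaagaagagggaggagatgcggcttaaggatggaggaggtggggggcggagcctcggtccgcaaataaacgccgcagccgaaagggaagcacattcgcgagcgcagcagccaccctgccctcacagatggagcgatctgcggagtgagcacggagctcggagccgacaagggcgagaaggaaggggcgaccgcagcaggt

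The motifs, searched on both strands, were an HNF4-type site (CAAAGTCCA), an HNF1-type core (GTTAAT), a site of the CDX type (TTTATNG), a site of the GATA type (AGATAA), an ATF4-type site (TGATGNAA) and the TATA box (TATAAA). The Slc3a1 window held 7 matches, among them the HNF4-type site from 39 to 31 bases before the start, the HNF1-type core at bases 1 to 6, 1 CDX-type site, 1 GATA-type site and 3 TATA boxes, of which 2 overlap each other and 1 overlaps the GATA-type site. Of all 32851 windows, 0.475% held the HNF4-type site, 7.10% the HNF1-type core, 10.9% the CDX-type site, 11.2% the GATA-type site, 3.97% the ATF4-type site and 13.6% the TATA box. The Slc15a1, Slc6a19 and Slc7a8 windows held 0 matches to these letters. The windows also differed in base composition, with a GC content of 62.7% for Slc15a1, 57.3% for Slc6a19, 58.0% for Slc7a8 and 46.3% for Slc3a1, against a median of 52.7% over all windows.

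After filtering, 5883 clumps of mice 1 to 5 were placed in zones from 70 enterocyte landmark genes, none of which is a transporter of the set, giving 3529 crypt, 1550 mid-villus and 804 villus tip clumps. UMIs were summed per mouse and zone, and levels are given as UMIs of the gene per 1000000 UMIs of the sum (CPM). The sums held from 79055 UMIs (villus tip, mouse 5) to 19001409 UMIs (crypt, mouse 4). The summed level of the enterocyte marker genes was 3172 to 13876 CPM in crypt sums, 38967 to 76098 in mid-villus sums and 51382 to 91571 in villus tip sums. Since the zones were assigned from enterocyte landmark genes, this rise is no independent check of them. Paneth cell markers, by contrast, ranged from 13.7 CPM in the crypt sum of mouse 2 to 14728 CPM in that of mouse 1, and mitochondrial UMIs took 4.70 to 18.6% of crypt, 6.90 to 21.4% of mid-villus and 8.15 to 21.0% of villus tip sums, highest in mouse 5 in each zone. Medians over the 5 mice from crypt to mid-villus to tip sums were 245, 58.0 and 52.6 CPM for the markers of dividing cells, 210, 139 and 88.5 CPM for tuft cell markers and 1344, 1478 and 3384 CPM for goblet cell markers. The part of these side values in the results was not tested. In sums of many cells, a change in the number of enterocytes in the clumps and a change in mRNA per enterocyte cannot be told apart.

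Against crypt clumps, mid-villus clumps had higher levels of 7 of the 10 transporters and lower levels of 2, at an adjusted p under 0.05 in edgeR's quasi-likelihood test on the sums of 5 mice with Benjamini-Hochberg adjustment over 7376 genes. Of those 7376 genes, 40.0% were called, 15.6% as higher and 24.4% as lower. The median log2 change was 1.33 over the 10 transporters and −0.08 over all genes tested. The higher 7 were Slc6a19, Slc15a1, Slc3a1, Slc7a7, Slc7a8, Slc3a2 and Slc7a9, and the lower 2 were Slc1a1 and Slc1a5. These log2 changes use TMM scaling, which relates each sum to the bulk of its genes, whereas CPM relates it to its total.

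Among the brush border carriers, Slc6a19 was at 23.0, 45.7, 44.1, 10.5 and 10.8 CPM in the crypt sums of mice 1 to 5, at 324, 376, 512, 337 and 186 CPM in the mid-villus sums and at 399, 471, 604, 583 and 266 CPM in the villus tip sums. Every villus sum lay above every crypt sum, and the villus tip was above the mid-villus in each of the 5 mice. The log2 change from crypt to mid-villus was 3.79 ± 0.36 (SE, edgeR adjusted p = 1.09e-07), from means of 26.8 ± 17.3 to 347 ± 117 CPM (SD, n = 5), a ratio of 12.9. For the peptide carrier Slc15a1, the crypt sums held 23.0, 41.1, 45.3, 12.7 and 46.1 CPM, the mid-villus sums 191, 393, 329, 459 and 452 CPM, and the tip sums 174, 298, 305, 359 and 519 CPM. Crypt and villus did not overlap, whereas mid-villus and tip did, with the tip lower in 4 of 5 mice. Its log2 change from crypt to mid-villus was 3.61 ± 0.43 (edgeR adjusted p = 1.1e-06).

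Slc7a9 and its heavy chain Slc3a1 were also higher in the villus. Slc3a1 stood at 29.3, 45.7, 63.3, 30.6 and 37.9 CPM in crypt, 119, 190, 218, 198 and 128 CPM in mid-villus and 140, 286, 326, 198 and 152 CPM in villus tip sums, so that crypt and villus values were apart. It rose by 2.13 ± 0.31 on the log2 scale from crypt to mid-villus (edgeR adjusted p = 6.38e-06). Slc7a9 was at 114, 120, 161, 65.6 and 138 CPM in crypt sums, and had 288, 260, 358, 259 and 214 CPM at mid-villus and 384, 248, 332, 198 and 266 CPM at the tip. The crypt values again lay below the others, and mid-villus and tip overlapped. Its log2 change from crypt to mid-villus was 1.27 ± 0.28 (edgeR adjusted p = 0.000713). The UMIs of Slc7a9 per UMI of Slc3a1, a ratio within each sum that no scaling can change, were 2.97 ± 0.76 in crypt, 1.69 ± 0.44 in mid-villus and 1.48 ± 0.79 in tip sums (SD, n = 5).

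**Figure D1:**
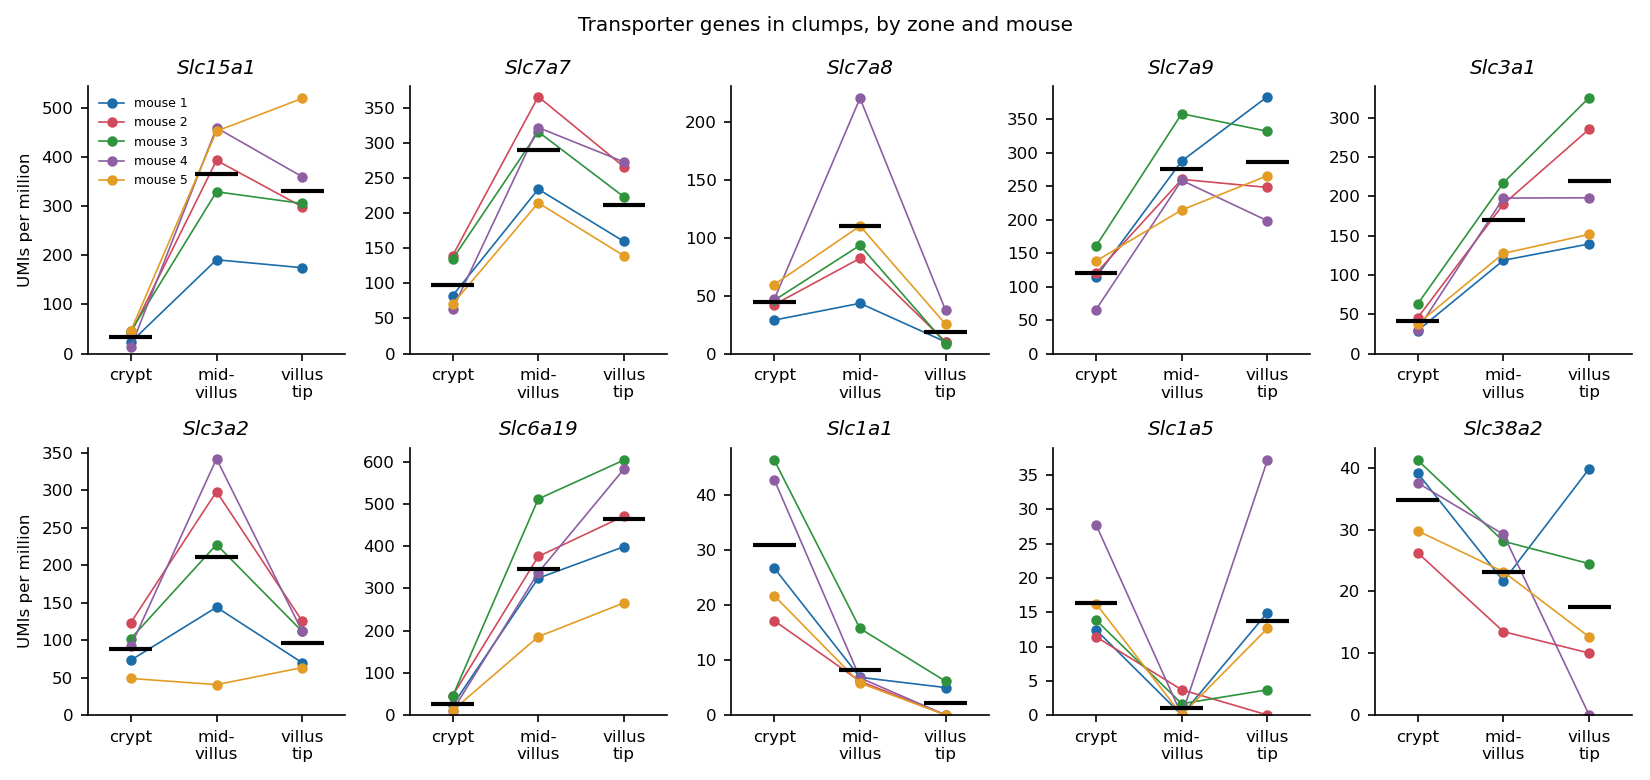
Level of each transporter gene in clump sums (y axis, CPM, from 0) by zone (x axis), with 1 point and line per mouse and a black bar for the mean of 5 mice. Slc6a19 and Slc15a1 sit near the bottom of their axes in crypt sums and between 186 and 604 (Slc6a19) and between 174 and 519 (Slc15a1) in the villus, whereas Slc7a8 is highest at mid-villus and at most 37.2 at the tip.

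The basolateral genes had their highest mean at mid-villus. Slc7a7 was at 82.3, 139, 134, 62.9 and 70.5 CPM in crypt, 234, 366, 316, 322 and 214 CPM in mid-villus and 159, 266, 223, 273 and 139 CPM in tip sums, lower at the tip than at mid-villus in 5 of 5 mice. From crypt to mid-villus it rose by 1.66 ± 0.28 on the log2 scale (edgeR adjusted p = 3.4e-05). Slc7a8 held 28.9, 42.2, 46.0, 46.9 and 59.6 CPM in crypt, 43.4, 82.2, 93.5, 220 and 110 CPM at mid-villus and 9.97, 10.0, 8.58, 37.2 and 25.3 CPM at the tip. The mid-villus sum was above the crypt sum in each mouse, although the groups overlapped through mouse 1, and every tip sum lay below every mid-villus sum. Slc7a8 was higher at mid-villus than in the crypt by 1.34 ± 0.37 on the log2 scale (edgeR adjusted p = 0.00535). The shared heavy chain Slc3a2 was at 73.1, 123, 102, 91.9 and 48.8 CPM in crypt, 144, 298, 228, 342 and 40.6 CPM at mid-villus and 69.8, 125, 111, 112 and 63.2 CPM at the tip. Mouse 5 went against the others at mid-villus, where its sum held 7 Slc3a2 UMIs, and the crypt to mid-villus difference over the 5 mice was 1.31 ± 0.33 (log2, edgeR adjusted p = 0.00269).

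Slc1a1, Slc1a5 and Slc38a2 did not share the villus pattern. Slc1a1 was at 26.7, 17.1, 46.3, 42.7 and 21.7 CPM in crypt, 6.85, 6.14, 15.7, 6.75 and 5.80 CPM at mid-villus and 4.98, 0, 6.13, 0 and 0 CPM at the tip. Crypt and mid-villus did not overlap, and the log2 change was −1.74 ± 0.39 (edgeR adjusted p = 0.000913). Slc1a5 had 12.4, 11.4, 13.9, 27.8 and 16.3 CPM in crypt and 0, 3.68, 1.65, 0 and 0 CPM at mid-villus, where 7 UMIs were counted in all, giving a log2 change of −3.52 ± 0.69 (edgeR adjusted p = 0.00023). At the tip it was at 15.0, 0, 3.68, 37.2 and 12.6 CPM, on 10 UMIs in all, a spread that overlapped both other zones. Slc38a2, with 39.1, 26.3, 41.3, 37.6 and 29.8 CPM in crypt and 21.7, 13.5, 28.1, 29.2 and 23.2 CPM at mid-villus, was lower at mid-villus in 5 of 5 mice but did not pass the test (log2 change −0.59 ± 0.33, edgeR adjusted p = 0.164). With the mouse as a block it did, at −0.59 (adjusted p = 0.0332), as it did with DESeq2 (−0.83, p = 0.0228). Its tip sums spread from 0 to 39.9 CPM. The filter on low counts asks for a set level in 5 sums. Slc1a1 reached it in 5 crypt sums and 1 mid-villus sum, so the crypt let it into the test. Slc1a5 reached it in 4 crypt, 0 mid-villus and 3 tip sums, so crypt and tip together let it in. With no filter both were still lower at mid-villus (adjusted p = 0.007 and 0.000267).

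Using the pairs alone, 3 of 8 transporters tested were called between mid-villus and crypt, where 31.4% of 4667 genes were called. Slc7a7 (log2 change 0.89, adjusted p = 0.161), Slc7a8 (0.56, p = 0.467), Slc7a9 (0.72, p = 0.265) and Slc3a2 (0.92, p = 0.108) then missed the threshold with the same direction. The mid-villus pairs of mice 4 and 5 held 70199 and 13564 UMIs.

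Villus tip and mid-villus clumps differed in 1 of the 10 transporters, Slc7a8, which fell by 2.79 ± 0.52 on the log2 scale towards the tip (edgeR adjusted p = 0.000866, lower in 5 of 5 mice), where 12.2% of all 7376 genes were called. The mean tip level was 0.166 of that at mid-villus. With zones taken from z scores of the landmark lists, where 1.93% of 6822 genes were called, the call was lost (−1.28, adjusted p = 0.158). The remaining changes from mid-villus to tip were 2.66 ± 0.97 for Slc1a5, 0.72 ± 0.32 for Slc6a19, 0.71 ± 0.30 for Slc3a1, −0.75 ± 0.35 for Slc3a2 and −1.06 ± 0.68 for Slc1a1, with adjusted p from 0.0716 to 0.338. Slc7a9 (0.35 ± 0.28), Slc7a7 (−0.15 ± 0.28), Slc15a1 (0.12 ± 0.39) and Slc38a2 (0.11 ± 0.42) had adjusted p from 0.446 to 0.906. Slc6a19 was nevertheless higher at the tip in each of the 5 mice, and Slc3a1 in each but mouse 4, which was at 198 CPM in both zones.

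With the mouse as a block, which compares zones within each animal, 5 of the 10 passed between tip and mid-villus, and the share of all genes called was then 26.7%. Slc3a1 (0.70, adjusted p = 0.00555) and Slc6a19 (0.70, p = 0.00661) were then higher at the tip, as was Slc1a5 on few UMIs (2.52, p = 0.0162), and Slc3a2 was lower (−0.75, p = 0.00707) beside Slc7a8. Scaling matters here. Total UMIs in place of TMM moved the median log2 change of all genes by −0.33 and the share of calls that were higher at the tip from 55.1% to 25.8%. Under total UMIs Slc7a8 stayed lower (−3.06, adjusted p = 0.000345), while Slc6a19 (0.42) and Slc3a1 (0.40) kept their sign with no call, and Slc15a1 (−0.15) and Slc38a2 (−0.20) changed theirs.

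Between villus tip and crypt, 7 of the 10 transporters were called, 5 higher and 2 lower at the tip, where 52.9% of all genes were called. Slc6a19 differed by 4.51 ± 0.38 on the log2 scale (edgeR adjusted p = 4.74e-09), Slc15a1 by 3.72 ± 0.44, Slc3a1 by 2.84 ± 0.32, Slc7a9 by 1.62 ± 0.28 and Slc7a7 by 1.51 ± 0.28. In pairs alone, with 51.1% of genes called, Slc7a9 (0.95, adjusted p = 0.091) and Slc7a7 (0.67, p = 0.266) missed the threshold. Slc1a1 was lower by a log2 change of −2.81 ± 0.60 (edgeR adjusted p = 0.000375), and with no filter by −2.83 ± 0.63 (p = 0.000691). For Slc7a8 the change was −1.45 ± 0.53 (edgeR adjusted p = 0.024), but this call was lost without mouse 2 (−1.45, p = 0.0763) or mouse 3 (−1.10, p = 0.177), and the sign turned to 0.29 (p = 0.634) with zones from z scores. Slc3a2 (0.56 ± 0.35, edgeR adjusted p = 0.192), Slc1a5 (−0.85 ± 0.70, p = 0.318) and Slc38a2 (−0.48 ± 0.39, p = 0.32) were not called, and with the mouse as a block Slc3a2 was, at 0.52 (adjusted p = 0.0421), as was Slc38a2 in clumps of over 1000 UMIs (−1.03, p = 0.0374), whereas its sign turned with zones from z scores (0.46, p = 0.258). Total UMI scaling shifted the median log2 change of all genes by −0.36 and moved the share of calls higher at the tip from 43.4% to 29.4%, and the 7 called transporters kept their call and direction.

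**Figure D2:**
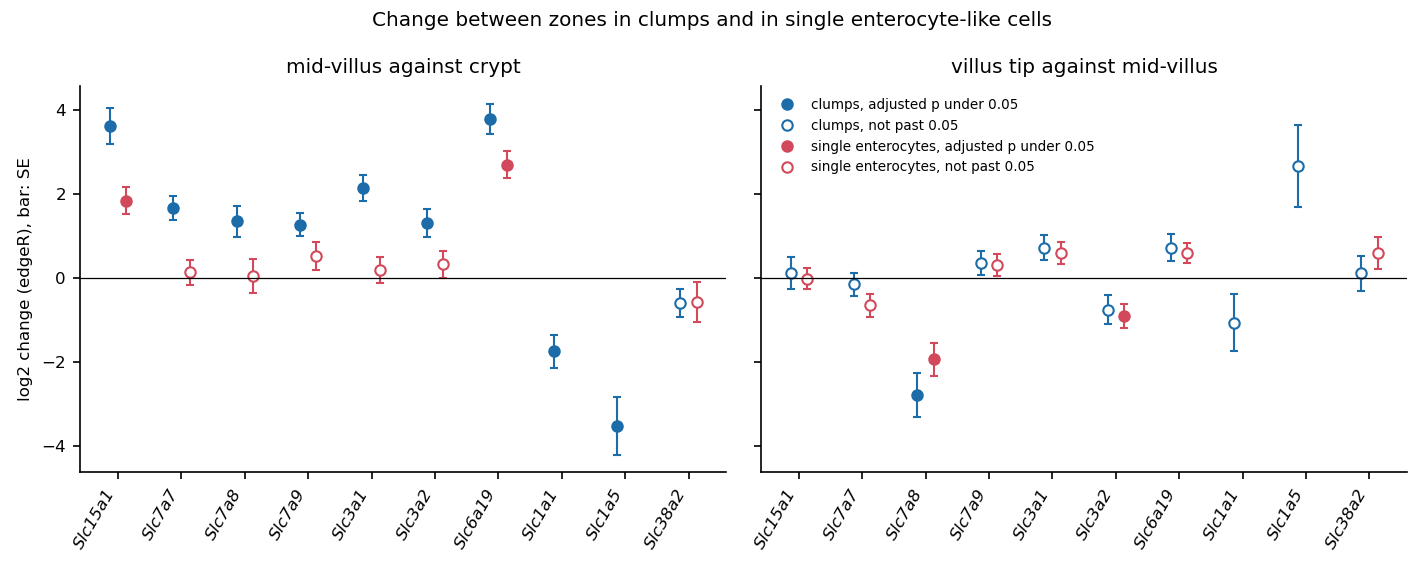
Log2 change of each transporter (y axis, edgeR with TMM scaling, bars are SE) at mid-villus against crypt on the left and at villus tip against mid-villus on the right, in clumps (blue) and single enterocyte-like cells (red), with filled points for an adjusted p under 0.05. Slc6a19 and Slc15a1 are highest on the left, at 3.79 and 3.61 in clumps, and on the right Slc7a8 is filled in both clumps (−2.79) and single cells (−1.94).

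A finer view divided the clumps into sextiles of their landmark centre of mass, from bin 1 (crypt) to bin 6 (tip). Slc6a19 rose in steps, with mean levels of 3.94, 10.3, 21.4, 136, 393 and 510 CPM over the 5 mice, and Slc15a1 followed with 4.50, 11.0, 28.5, 176, 394 and 395 CPM, level over the last bins. In CPM, the largest step of both was from bin 4 to bin 5. Slc3a1 (11.6, 17.3, 53.7, 117, 168 and 227 CPM) was highest in bin 6 in 5 of 5 mice, and its partner Slc7a9 (24.0, 73.9, 176, 229, 251 and 308 CPM) was already at 176 CPM in bin 3. These are descriptions, with no test.

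Slc7a7 had its highest mean in bin 5, in 4 of 5 mice (14.9, 43.7, 135, 239, 267 and 224 CPM). Slc7a8 (16.9, 33.2, 58.9, 95.3, 89.8 and 32.1 CPM) and Slc3a2 (42.0, 45.1, 110, 185, 169 and 135 CPM) had theirs in bin 4, where 2 and 3 of the mice had their own highest value. Slc1a1 went the other way, from 24.2, 34.9 and 31.1 CPM in the first bins to 20.1, 9.72 and 0.698 CPM. Slc1a5 was highest in bin 1 in 4 of 5 mice (31.4, 17.5, 11.4, 3.97, 2.24 and 13.0 CPM), and Slc38a2 spanned the least, from 14.0 to 38.9 CPM. The highest bin exceeded the lowest 129 times for Slc6a19, 87.7 times for Slc15a1 and 2.78 times for Slc38a2.

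**Figure D3:**
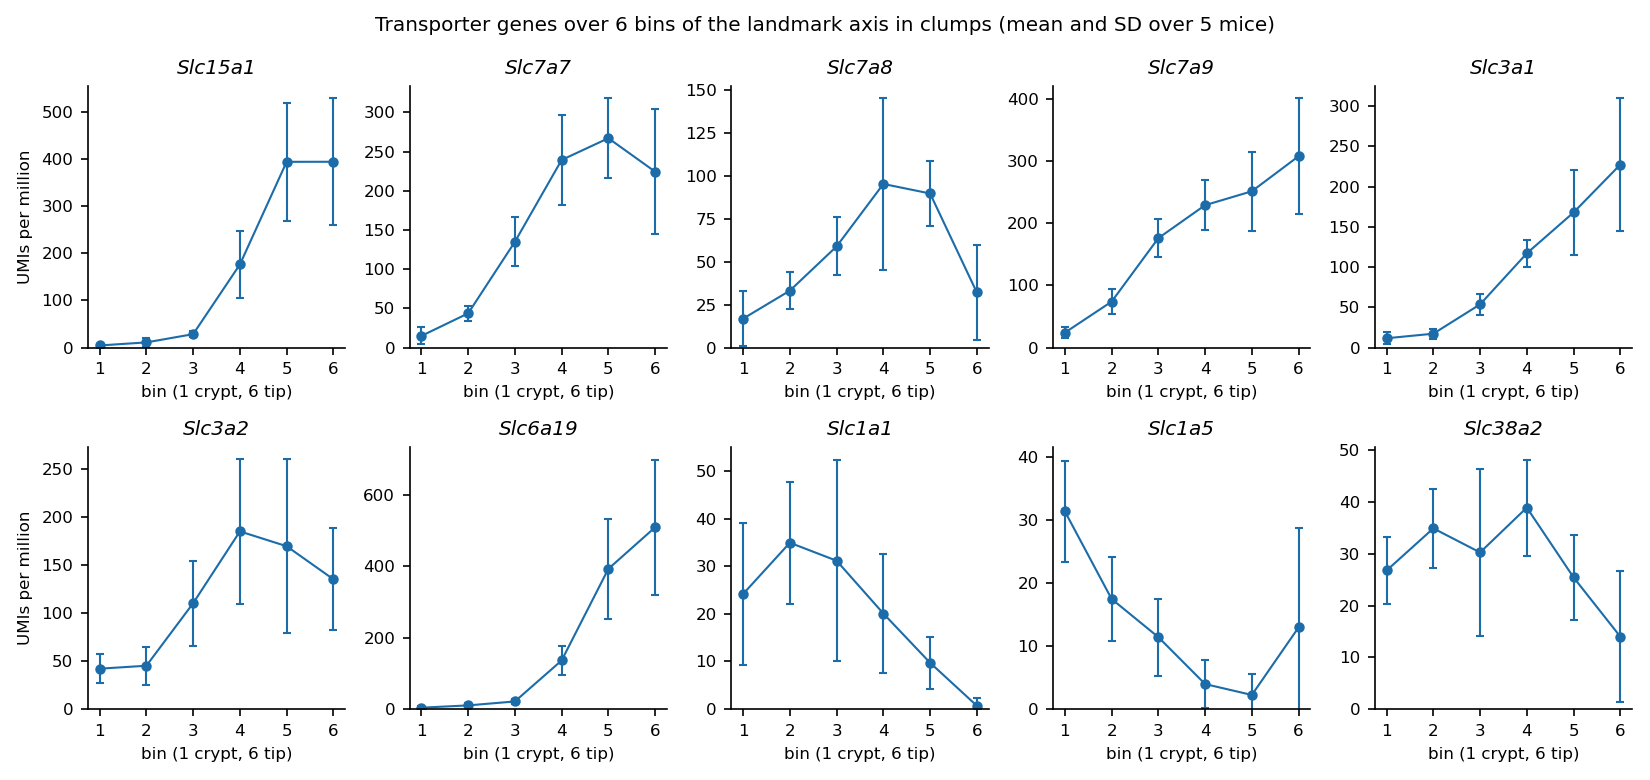
Mean level ± SD over 5 mice of each transporter (y axis, CPM, from 0) in 6 bins of clumps along the landmark axis (x axis, bin 1 crypt to bin 6 tip). Slc6a19 climbs from 3.94 to 510, Slc7a8 peaks at 95.3 in bin 4 and Slc1a1 declines to 0.698 in bin 6.

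The share of the basolateral light chain UMIs (Slc7a7 plus Slc7a8) that came from Slc7a8 was 26.0, 23.3, 25.5, 42.7 and 45.8% in the crypt sums of mice 1 to 5, 15.6, 18.4, 22.9, 40.7 and 33.9% at mid-villus and 5.88, 3.64, 3.70, 12.0 and 15.4% at the tip. It was lower at mid-villus than in the crypt, and lower again at the tip, within each of the 5 mice, and the tip values lay below all mid-villus values. The mean difference between tip and mid-villus was −18.2 ± 6.96 percentage points (SD, n = 5, p = 0.0625 in an exact two-sided permutation test within mice, the smallest it can give, and 0.167 after Benjamini-Hochberg adjustment over 8 such comparisons). In single enterocyte-like cells the share was 30.5 ± 6.96% at mid-villus and 17.5 ± 5.76% at the tip, lower at the tip in 4 of 4 mice (exact permutation p = 0.125, again the smallest possible). Their crypt share was 33.6% in 3 mice, and the lower value at mid-villus seen in every clump mouse was found in 2 of these 3 (mean difference −0.901 percentage points, exact permutation p = 1). Both light chains together gave 1.72 ± 0.56 UMIs per Slc3a2 UMI in crypt and 2.42 ± 0.29 at the tip, and 1.50 to 8.00 at mid-villus, where mouse 5 supplied the highest value. The ratio of Slc7a9 to Slc3a1 was lower at mid-villus than in the crypt in 5 of 5 mice (exact permutation p = 0.0625, adjusted 0.167), and lower at the tip than at mid-villus in 3 of 5. In single enterocyte-like cells it was higher at mid-villus than in the crypt in 2 of 3 mice, with a mean difference of −0.17 ± 1.13 (SD, exact permutation p = 1).

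**Figure D4:**
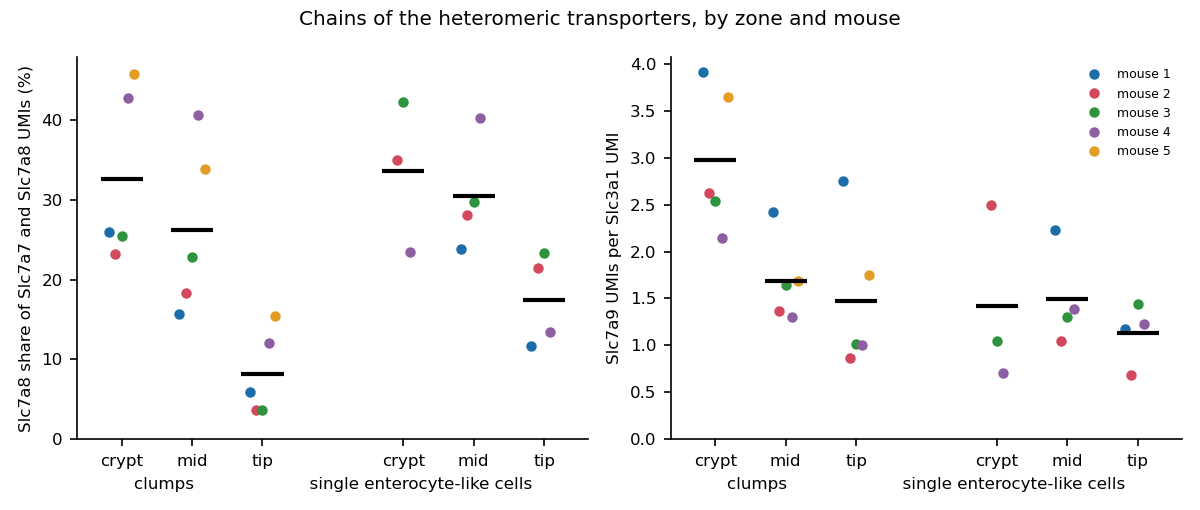
Left, the percentage of Slc7a7 plus Slc7a8 UMIs that came from Slc7a8; right, Slc7a9 UMIs per Slc3a1 UMI (y axes, from 0), by zone in clumps and in single enterocyte-like cells (x axes), with 1 point per mouse and a black bar for the mean. In clumps the Slc7a8 share averages 32.7% in crypt, 26.3% at mid-villus and 8.12% at the tip, and in single cells 33.6% in crypt, 30.5% at mid-villus and 17.5% at the tip.

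Over the 15 mouse and zone sums, the genes whose log2 levels were most like each transporter (Pearson's r among 4776 genes, a description over sums that share animals and zones) were Treh (0.985) and Slc46a3 (0.983) for Slc15a1, and Cgref1 (0.984) and the creatine carrier Slc6a8 (0.980) for Slc6a19. Slc3a1 was closest to Apoc2 (0.970) and Ifi27l2b (0.967), Slc7a9 to the brush border protease gene Mep1a (0.959) and to Sepp1 (0.948), and Slc7a7 to Acsl5 (0.964) and Cyp3a25 (0.964). Likeness was weaker for Slc7a8, with Bpnt1 (0.884) and Fth1 (0.880), and for Slc1a5, with Pabpc4 (0.835) and Ipo5 (0.830). Slc3a2 was nearest to Tsc22d1 (0.926) and Tmem41a (0.911), Slc1a1 to Fam120a (0.942) and Gm10649 (0.941), and Slc38a2 to Smarcd2 (0.934) and Ppdpf (0.893).

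Single cells allow the same question without neighbors in the well. Of 5199 cells kept (median 1689 UMIs), 2313 were enterocyte-like by their marker sums, and these were placed in zones by the same landmarks, in 4 mice at mid-villus and tip and in 3 mice (2, 3 and 4) in the crypt. The crypt sums rested on 28, 80 and 58 cells. These cells are not the counterpart of crypt clumps, since enterocyte-like cells gave sums in bins 3 to 6 alone of the clump axis, while 981 and 980 of the 3529 crypt clumps lay in bins 1 and 2. Of the 10 transporters, 8 passed the filter on low counts, and Slc1a1 and Slc1a5 did not. Between villus tip and mid-villus, 2 of the 8 were called, both lower at the tip, where 32.0% of 4122 genes were called. Slc7a8 was at 13.8, 46.5, 55.5 and 88.3 CPM in mice 1 to 4 at mid-villus and at 4.77, 11.2, 15.1 and 8.31 CPM at the tip, lower in 4 of 4 mice though the ranges met through mouse 1. It fell by 1.94 ± 0.39 on the log2 scale (edgeR adjusted p = 0.00157).

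Slc3a2, at 41.4, 106, 119 and 121 CPM at mid-villus and 24.4, 43.0, 36.6 and 36.8 CPM at the tip, fell by 0.91 ± 0.29 on the log2 scale (edgeR adjusted p = 0.0223). That call was lost when mouse 2 (−0.96, p = 0.0811), mouse 3 (−0.83, p = 0.0954) or mouse 4 (−0.85, p = 0.135) was left out, leaving 1 transporter called each time where 13.0 to 16.1% of all genes were called, and 4 were called without mouse 1, where 31.4% of all genes were. Slc7a7 was at 44.2, 119, 131 and 131 CPM at mid-villus and 36.0, 41.2, 49.5 and 53.4 CPM at the tip, with a log2 change of −0.65 ± 0.27 (edgeR adjusted p = 0.0636). Slc6a19 (0.60 ± 0.23, edgeR adjusted p = 0.0551) and Slc3a1 (0.59 ± 0.25, p = 0.077) had positive changes, and Slc7a9, Slc38a2 and Slc15a1 had 0.31 ± 0.27, 0.59 ± 0.37 and −0.02 ± 0.25. With the mouse as a block 5 passed, beside 43.4% of all genes, adding Slc7a7 (−0.62, adjusted p = 0.00988), Slc3a1 (0.60, p = 0.0127) and Slc6a19 (0.59, p = 0.000341).

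The scale of these cells has to be read with care, since total UMIs in place of TMM moved the median log2 change of all genes by −0.60 and the share of calls higher at the tip from 48.5% to 11.1%. On total UMIs Slc7a8 (−2.56), Slc3a2 (−1.51) and Slc7a7 (−1.27, adjusted p = 0.00883) were lower at the tip, Slc6a19 was at 0.03, and Slc3a1 at −0.00471 and Slc7a9 at −0.28 turned sign. In CPM, Slc6a19 was at 248, 259, 282 and 433 at mid-villus and 219, 260, 334 and 439 at the tip. Mitochondrial UMIs took 30.0 to 32.9% of the mid-villus and 31.4 to 33.3% of the tip sums.

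Mid-villus and crypt enterocyte-like cells differed in 2 of the 8 transporters, against 26.2% of 4122 genes. Slc6a19 was at 35.0, 45.6 and 101 CPM in the crypt sums of mice 2, 3 and 4, and higher at mid-villus by 2.70 ± 0.32 on the log2 scale (edgeR adjusted p = 8.15e-06). Slc15a1 was at 58.3, 45.6 and 125 CPM in the crypt and at 127, 232, 187 and 276 CPM at mid-villus, a log2 change of 1.84 ± 0.32 (edgeR adjusted p = 0.000202). The other 6 changed by −0.57 to 0.51, with adjusted p from 0.281 to 0.962. Slc7a8 was among them, at 81.7, 66.9 and 47.5 CPM in the crypt and a log2 change of 0.04 ± 0.41. Slc1a1 stood at 35.0, 30.4 and 17.8 CPM in the crypt and at 2.76, 2.45, 1.82 and 1.26 CPM at mid-villus, with every crypt sum above every mid-villus sum. It did not pass the filter, and with no filter, where 7.99% of 16738 genes were called, its log2 change was −2.98 ± 0.80 (edgeR adjusted p = 0.00403). Total UMI scaling moved the median of all genes by −0.35 and the share of calls higher at mid-villus from 40.9% to 19.3%, and kept both calls, at 2.31 and 1.45.

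Besides the enterocyte-like cells, marker sums gave 210 goblet-like, 217 enteroendocrine-like, 188 tuft-like, 15 Paneth-like and 1492 lymphocyte-like cells, and 764 cells had no type. Marker genes were kept out of the tests and hold no transporter of the set. The sums of the rarer types were small outside mouse 2, with 9, 187, 16 and 5 enteroendocrine-like and 19, 157, 7 and 5 tuft-like cells in mice 1 to 4, and the lymphocyte-like sum of mouse 1 had 6 cells and 8159 CPM of lymphocyte markers against 47796 to 55392 in the other mice. Plates named for CD24 held 165 of the enteroendocrine-like, 102 of the tuft-like and 640 of the lymphocyte-like cells. Of the 10 transporters, 8 passed the filter on low counts, and Slc7a8 and Slc1a1 did not. Each type was compared with enterocyte-like cells in 1 edgeR fit over 4 mice and 3520 genes. Slc1a5 reached the level the filter asks for in 0 of the 4 enterocyte-like sums, 0 goblet-like, 2 enteroendocrine-like, 3 tuft-like and 3 lymphocyte-like sums, so it entered the test through types where it was high. Slc7a9 reached that level in enterocyte-like sums alone, and Slc38a2 in 4 goblet-like and 1 tuft-like sum. Slc15a1 reached it in 4 enterocyte-like and 2 enteroendocrine-like sums, Slc7a7 in 3 enterocyte-like and 1 goblet-like, and Slc3a1 in 3 enterocyte-like and 2 goblet-like. For Slc6a19 these were 4 enterocyte-like, 4 enteroendocrine-like and 1 tuft-like sum. The counts over the 8 are from the fit with the filter and carry that choice. Changes are therefore given from the fit with no filter (20334 genes) for Slc1a5, Slc7a9, Slc15a1, Slc7a7 and Slc3a1. The same fit gives those of Slc6a19 outside enteroendocrine-like cells and of Slc38a2 in goblet-like cells. In that fit Slc7a8 was lower than in enterocyte-like cells in all 4 types, with 1 UMI in goblet-like cells (adjusted p = 5.49e-05), 1 in tuft-like cells (p = 1.11e-05), 7 in enteroendocrine-like cells (−2.82 ± 0.69, p = 0.000601) and 5 in lymphocyte-like cells (−4.76 ± 0.65, p = 7.45e-12) against 240 UMIs in enterocyte-like cells. The share of all genes called there ranged from 8.10% (goblet-like) to 34.0% (lymphocyte-like). The pooled level of Slc7a8 was 0.062 of the enterocyte-like level in goblet-like cells (95% counting interval 0.00156 to 0.349) and 0.0705 in tuft-like cells (0.00178 to 0.397). Total UMIs in place of TMM moved the median log2 change of all genes by 0.77 in goblet-like, 1.33 in tuft-like, 1.34 in enteroendocrine-like and 1.50 in lymphocyte-like cells. Shares of calls that were higher in the type moved with it, from 31.0% to 66.1%, from 38.5% to 82.1%, from 38.4% to 85.0% and from 48.2% to 77.3%, respectively. Mitochondrial UMIs took 30.7 to 33.0% of enterocyte-like sums and 8.89 to 20.9% of the sums of these 4 types.

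**Figure D5:**
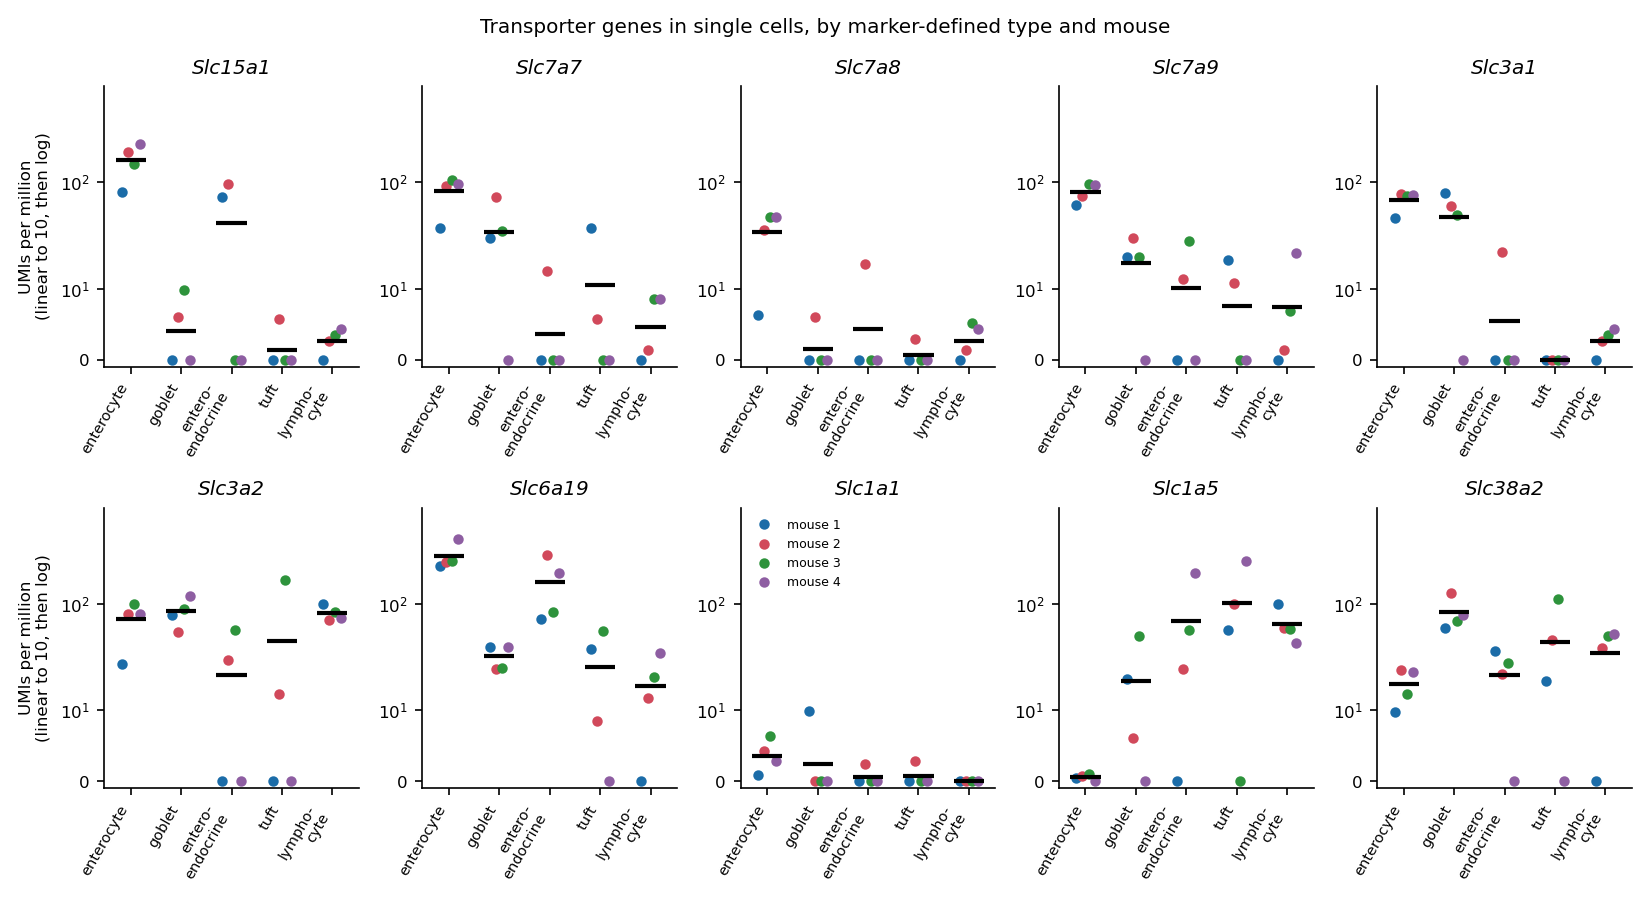
Level of each transporter (y axis, CPM, linear to 10 and logarithmic above) in sums of single cells by type (x axis), with 1 point per mouse and a black bar for the mean. Slc15a1 and Slc6a19 have their highest mean in enterocyte-like cells, with Slc6a19 at 71.8 to 288 in enteroendocrine-like cells, and Slc1a5 is at most 1.06 in enterocyte-like and 43.0 to 99.5 in lymphocyte-like cells.

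In goblet-like cells 6 of the 8 transporters were called, 4 of them lower than in enterocyte-like cells, with 23.9% of all genes called. The other 2, Slc38a2 and Slc1a5, had positive changes, and neither reached the filter level in an enterocyte-like sum. Slc15a1 was at 0, 6.02, 9.84 and 0 CPM against 80.5, 193, 150 and 226 CPM in the enterocyte-like cells of mice 1 to 4, on 3 UMIs, and its pooled level was 0.0389 of that in enterocyte-like cells (95% interval 0.00800 to 0.114, which covers counting error). Slc6a19, at 39.5, 24.1, 24.6 and 39.4 CPM against 224, 246, 254 and 405 CPM, was lower by a log2 change of −4.18 ± 0.72 (edgeR adjusted p = 8.25e-07). Slc7a9 (−2.79 ± 0.64, edgeR adjusted p = 0.00058) and Slc7a7 (−1.79 ± 0.58, p = 0.0326) were lower as well. With the filter, Slc7a7 had −1.62 ± 0.52 (edgeR adjusted p = 0.0163). That call was lost under total UMIs (−0.95, p = 0.166) and DESeq2 (−1.66, p = 0.099), and without mouse 3 (p = 0.142) or mouse 4 (p = 0.156). Slc38a2 was at 59.3, 126, 68.9 and 78.7 CPM against 9.78, 23.7, 14.3 and 22.7 CPM. The sums did not overlap, and with no filter the log2 change was 1.39 ± 0.52 and missed the threshold (edgeR adjusted p = 0.079). Slc1a5, at 19.8, 6.02, 49.2 and 0 CPM on 13 UMIs against at most 1.06 CPM on 4 UMIs, had a log2 change of 4.21 ± 0.82 (edgeR adjusted p = 2.13e-05), and with the filter but without mouse 3 it missed the threshold (3.52, p = 0.0582). Without mouse 3 the count fell to 3 of 7 tested, with 16.7% of all genes called.

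Neither heavy chain was called in goblet-like cells. Slc3a1 was at 79.1, 60.2, 49.2 and 0 CPM against 46.2, 77.9, 73.5 and 76.0 CPM, with a log2 change of −1.17 ± 0.56 (edgeR adjusted p = 0.223). With the filter the change was −1.04 ± 0.49 (edgeR adjusted p = 0.121), and it then passed with the mouse as a block (−1.09, p = 0.0417). Slc3a2 was at 79.1, 54.2, 88.6 and 118 CPM against 27.1, 79.3, 99.9 and 80.4 CPM, a log2 change of −0.60 ± 0.47 (edgeR adjusted p = 0.392), which turned to 0.14 on total UMIs. As a share of their own mean CPM in enterocyte-like cells, Slc3a1 stood at 68.9% and Slc7a7 at 41.3%, whereas Slc7a9 was at 21.4%, Slc6a19 at 11.3% and Slc15a1 at 2.44%. The enterocyte marker list was at 9.33% of its enterocyte-like level in the same sums.

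In enteroendocrine-like cells 7 of the 8 were called, 1 higher and 6 lower, with 36.3% of all genes called. Slc6a19 was at 71.8, 288, 83.9 and 194 CPM, on 2, 118, 3 and 2 UMIs, so that only the mouse 2 value, above the enterocyte-like sum of mouse 2, exceeds the floor of 3 UMIs. The log2 change was −2.09 ± 0.53 (edgeR adjusted p = 0.00155) and, on total UMIs, −0.68 (p = 0.456). Its mean CPM, which gives those small sums equal weight, was 56.5% of the enterocyte-like mean, while the enterocyte marker list was at 7.48%, Slc3a1 at 8.02%, Slc7a7 at 4.43% and Slc7a9 at 12.4%. Slc15a1 was at 71.8 and 95.1 CPM in mice 1 and 2, on 2 and 39 UMIs, and at 0 CPM in mice 3 and 4, 25.7% of the enterocyte-like mean, with a log2 change of −2.98 ± 0.64 (edgeR adjusted p = 7.37e-05). With no filter, Slc7a7 (−4.39 ± 0.78), Slc7a9 (−4.32 ± 0.77) and Slc3a1 (−3.66 ± 0.72) were lower, on 6, 6 and 9 UMIs. Slc3a2 was lower with the filter (−2.58 ± 0.61), on 14 UMIs, and lost its call on total UMIs (−1.33, p = 0.098). All UMIs of Slc7a7 and Slc3a1, 5 of Slc7a9 and 12 of Slc3a2 came from mouse 2. In mice 1, 3 and 4, 3 UMIs are 108, 83.9 and 291 CPM, above the enterocyte-like mean of each of these genes, so low counts there show no drop. Slc1a5 was higher, at 0, 24.4, 56.0 and 194 CPM on 14 UMIs (3.83 ± 0.83, edgeR adjusted p = 9.21e-05). Slc38a2 had −0.88 ± 0.63, and 0.41 on total UMIs.

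Tuft-like cells had 7 of the 8 called, 1 higher and 6 lower, with 30.2% of all genes called. Slc1a5 was the higher one, at 56.0, 99.3, 0 and 249 CPM on 41 UMIs (log2 change 5.33 ± 0.70, edgeR adjusted p = 7.84e-12). Slc3a1 had 0 UMIs in the 4 sums, and 3 UMIs over the group would be 9.69-fold lower than in enterocyte-like cells (95% counting interval of the pooled ratio 0 to 0.127). Slc15a1 had 2 UMIs, a pooled ratio of 0.0295 (95% counting interval 0.00356 to 0.107). With no filter, Slc6a19 (−5.60 ± 0.86), Slc7a7 (−4.43 ± 0.83) and Slc7a9 (−4.32 ± 0.80) were lower, and with it Slc3a2 (−2.99 ± 0.67), on 4 to 8 UMIs each. Slc3a2 was not called on total UMIs (−1.69, p = 0.0676). Slc6a19 stood at 8.94% of its enterocyte-like mean, below the 18.2% of the enterocyte marker list. Slc38a2, at 18.7, 45.4, 110 and 0 CPM, had a log2 change of −0.04 ± 0.56, and 1.27 (p = 0.0574) on total UMIs.

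Lymphocyte-like cells, which lie in and under the epithelium, had 7 of the 8 called, 1 higher and 6 lower, where 64.1% of all genes were called. Slc1a5 was at 99.5, 59.1, 57.8 and 43.0 CPM, above every enterocyte-like sum (log2 change 4.60 ± 0.65, edgeR adjusted p = 5.08e-11). With no filter, Slc15a1 (−7.07 ± 0.81), Slc3a1 (−5.88 ± 0.73), Slc6a19 (−5.49 ± 0.73), Slc7a7 (−5.45 ± 0.70) and Slc7a9 (−5.10 ± 0.68) were lower. Their mean CPM stood at 1.59 to 9.14% of enterocyte-like cells, beside 3.85% for the enterocyte marker list. Slc1a1 had 0 UMIs, at least 1.81-fold lower than in enterocyte-like cells when 3 UMIs are allowed over the group (edgeR adjusted p = 5.01e-05 with no filter). The direction of Slc3a2, the heavy chain also known as the lymphocyte activation antigen CD98, depended on the scale. It was at 99.5, 70.9, 83.3 and 73.2 CPM, 114% of the enterocyte-like mean, and its log2 change was −1.35 ± 0.44 with TMM (edgeR adjusted p = 0.00696) and 0.12 with total UMIs (p = 0.837). With TMM it was not called without mouse 4 (−0.99, p = 0.135) or without the CD24 plates (−0.82, p = 0.224). Slc38a2 likewise went from −0.18 ± 0.43 to 1.31 (p = 0.00613), with 0, 38.1, 49.3 and 51.6 CPM. Without mouse 2, which supplied most cells of the rarer types, 879 genes and 1 transporter could be tested in the 4 type comparisons.

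Within goblet-like cells, none of the 10 transporters passed the filter on low counts when 205 cells were ranked by their goblet landmark genes and split into crypt-ward, middle and tip-ward groups of equal size (in 4, 4 and 3 mice), where 427 genes were tested and 47.5% of them called between the tip-ward and crypt-ward groups. Total UMI scaling moved the median log2 change of those genes by −0.57 and the share of calls higher in the tip-ward group from 45.3% to 24.6%. Without the filter, edgeR called 0 of the 10 and 1 had an unadjusted p under 0.05, where 0.954% of 10797 genes were called. Slc38a2 gave 4, 21 and 18 UMIs in the crypt-ward, middle and tip-ward groups, Slc3a1 4, 12 and 12, Slc3a2 11, 11 and 15, and Slc1a5 7, 5 and 1.

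A wider list of 31 other amino acid and peptide transporters gave 8 genes that could be tested in clumps, of which 4 were higher and 1 lower at mid-villus than in the crypt, beside 15.6% of all genes higher and 24.4% lower. The proton-coupled carrier Slc36a1 (2.58 ± 0.40), the neutral amino acid carrier Slc43a2 (2.40 ± 0.29) and the aromatic amino acid carrier Slc16a10 (2.31 ± 0.28) led the higher ones, and Slc7a1, an importer of cationic amino acids, was lower (−2.74 ± 0.51, edgeR adjusted p = 0.000129). From mid-villus to tip 2 were lower, where 12.2% of all genes were called, the basolateral carriers Slc16a10 (−1.52 ± 0.30) and Slc43a2 (−1.02 ± 0.29). Between tip and crypt 3 were higher and 2 lower, where 52.9% of all genes were called. In single enterocyte-like cells, 3 of 6 tested were higher at mid-villus than in the crypt, with Slc16a10 at 1.87 ± 0.40, Slc43a2 at 1.75 ± 0.28 and Slc36a1 at 1.37 ± 0.42, and 3 of 6 were lower at the tip than at mid-villus, where 26.2% and 32.0% of all genes were called. These 3 were Slc6a20a (−1.63 ± 0.53), Slc16a10 (−1.16 ± 0.30) and Slc43a2 (−0.62 ± 0.23). The glutamine carrier Slc38a1 was higher than in enterocyte-like cells in goblet-like (2.51 ± 0.74), enteroendocrine-like (3.00 ± 0.68) and lymphocyte-like cells (3.29 ± 0.54), each with 1 higher, 2 lower and 1 not called of 4 tested, beside 23.9%, 36.3% and 64.1% of all genes called. Tuft-like cells had the same split (30.2% of all genes called), with the taurine carrier Slc6a6 higher (1.27 ± 0.48), and Slc43a2 and Slc16a10 were the lower ones in each of the 4 types.

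Of 10 genes of the amino acid response, the program through which ATF4 acts when amino acids are short, 5 could be tested in clumps. At mid-villus against crypt, where 40.0% of all genes were called, 4 of the 5 passed. Trib3 (2.92 ± 0.57) and Ddit3 (1.75 ± 0.43) were higher, and Eif4ebp1 (−1.40 ± 0.40) and Asns (−1.25 ± 0.46), which encodes asparagine synthetase, were lower. At the tip against mid-villus, where 12.2% were called, 1 passed, Eif4ebp1, an inhibitor of cap-dependent translation, which rose by 2.31 ± 0.46 on the log2 scale (edgeR adjusted p = 0.00154).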

How the data were processed

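MARS-seq libraries of clumps and of single cells were analysed. The authors sorted wells into 384-well plates, demultiplexed with bcl2fastq 2.15.0.4, aligned reads to GRCm38 and deposited whole-number UMI counts per gene and well, 1 table for clumps (27538 genes, 17162 wells, 45 plates, 38454111 UMIs) and 1 for single cells (23379 genes, 16850 wells, 44 plates, 39137313 UMIs). The deposited counts are raw, and no background was subtracted here. Cell barcodes are reused from plate to plate, each well name ends in its plate, and no well name occurred more than once within a table. No doublet caller was run.

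A clump entered if it had more than 500 UMIs, 200 or more genes and no more than 30% of UMIs from mitochondrial genes; the lowest 2% by landmark share were then dropped, which left a median of 2575 UMIs per clump. The zone was the landmark list (30 crypt, 10 mid-villus or 30 tip genes) whose 0 or 1 indicator correlated best with the clump's normalized landmark values. For single cells the limits were 200 to 7000 UMIs, 150 to 1500 genes and a mitochondrial share of up to 40%. A cell took the type with the largest sum among goblet, enteroendocrine, tuft, Paneth and lymphocyte markers, if that sum reached 10 UMIs without a tie. Enterocyte markers did not compete. A cell was enterocyte-like if all those sums stayed under 10 UMIs and its enterocyte marker sum reached 10 UMIs. Cells whose erythroid or plasma cell marker sum reached 10 UMIs and was at least as large as those sums got no type. Near the limit of 10 UMIs lay 23 enterocyte-like, 4 goblet-like, 25 enteroendocrine-like, 12 tuft-like, 129 lymphocyte-like and 6 of 15 Paneth-like cells. The mouse was the replicate, and sums needed at least 5 wells.

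Sums were tested with edgeR 4.0.16 (quasi-likelihood, TMM, filterByExpr, Benjamini-Hochberg, threshold 0.05) in R 4.3.3, after the scripts were tested on simulated data. Standard errors are the absolute log2 change over the square root of the quasi-likelihood F. Landmark and marker genes were left out of the genes tested. DESeq2 1.42.0 was an alternative, with other filters, scalings, zone rules and cell type rules. Same-numbered sums within a table were taken to come from the same animal. For single-cell mouse 2, with 3 plates labelled 4 months and the rest 3 months, the labels do not settle this. After group means were removed, log levels of same-numbered sums correlated at 0.252 to 0.656 between zones of clumps, 0.138 to 0.578 between zones of enterocyte-like cells and −0.064 to 0.501 between types, so the mouse was also fitted as a block. Within each clump zone, no sums of different mice agreed within sampling noise. Single-cell sums were not compared in this way.

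The transporters, wider lists and tests were chosen with earlier results of these data known. The text names all 10 transporters, at most 3 called genes per wider list and direction, and the 2 genes nearest to each transporter among genes of at least 20 CPM on the log2(CPM + 5) scale. Some genes that this rule names are not reported here. UMIs come from 3′ ends, so CPM is not divided by gene length, and levels, shares and ratios of transporters are compared between groups, not read as one gene's abundance over another's. Counting intervals and floors of 3 UMIs cover counting error only.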

Additional observations from a re-analysis of the deposited data

Results flagged for a closer look

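In 4 of 72 groups of 4 or 5 mice, 1 mouse lay farther from the others than Dixon's 95% limit allows, and chance flags about 1 in 20 groups. Slc1a1 in mid-villus clumps was at 15.7 CPM in mouse 3, on 38 UMIs, against 5.80 to 6.85 CPM in the other 4 mice. Slc7a7 in mid-villus enterocyte-like single cells was at 44.2 CPM in mouse 1, on 16 UMIs, against 119 to 131 CPM in the other 3. Slc3a1 in enterocyte-like cells was at 46.2 CPM in mouse 1, on 104 UMIs, against 73.5 to 77.9 CPM. Slc6a19 in enterocyte-like cells was at 405 CPM in mouse 4, on 730 UMIs, against 224 to 254 CPM.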

How the results depend on the processing

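Over 17 alternatives and 931 recomputed values of single transporters, 41 changed sign, 38 of them with no call in either fit and 3 with a call. The 3 were Slc7a8 at villus tip against crypt with zones by z score (0.29), and Slc3a2 (0.12) and Slc38a2 (1.31) in lymphocyte-like cells with total UMI scaling, an alternative chosen, like exact landmark names, after seeing the data. With pairs only, 3 transporters were called at mid-villus against crypt (31.4% of all genes) and 4 at tip against crypt (51.1%) in clumps. For tip against mid-villus in clumps, the count of 1 became 5 with the mouse as replicate block (26.7% of all genes called), 0 with zones by z score (1.93%; edgeR, with 3 of 9 tested at an unadjusted p under 0.05) and 2 with mouse 6 (21.8%), and in single enterocyte-like cells the count of 2 became 5 with the block (43.4%). The block lost and reversed no call, and the calls it added stand beside their results. Leaving out each mouse, with 8 to 10 transporters tested in clumps, gave 7 to 9 calls for mid-villus (31.5 to 42.2% of all genes called) and 5 to 7 for tip against crypt (46.5 to 53.3%), 1 for tip against mid-villus (5.06 to 14.4%), 1 to 4 (13.0 to 31.4%) and 2 to 3 (15.0 to 26.9%) for tip and crypt against mid-villus in single enterocyte-like cells, and 1 to 7 in goblet-like (15.7 to 22.5%), tuft-like (17.9 to 29.6%), enteroendocrine-like (29.6 to 35.2%) and lymphocyte-like cells (up to 66.1%), where the value of 1 came without mouse 2, with 1 transporter tested. The tip-ward against crypt-ward goblet-like comparison had 0 called in each, with 1 of 10 at an unadjusted p under 0.05 without the filter on low counts (edgeR). The cause of these changes was not tested. Depth limits the villus tip sums (79055 to 816189 UMIs), the Slc1a5 and Slc1a1 values in the villus, and the rarer types.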

Other observations

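Clumps above 2n from mouse 6, which was left out of the comparisons except as an alternative, gave single sums per zone. Slc15a1 was at 94.7 CPM in crypt, 393 CPM at mid-villus and 225 CPM at the tip, and Slc6a19 at 46.7, 373 and 176 CPM. Slc7a8 was at 68.2, 134 and 28.1 CPM, the last on 4 UMIs, and Slc1a1 at 35.4, 7.86 and 7.02 CPM. Slc3a2 was at 107, 236 and 56.2 CPM.

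Paneth-like cells reached a sum in mouse 2 alone, with 14 cells and 26370 UMIs. Of all 15 such cells, 6 lay near the marker limit and 10 fell in the lymphocyte-like cluster when cells were clustered. In it Slc15a1 had 3 UMIs (114 CPM), Slc3a2 and Slc6a19 2 UMIs each and Slc38a2 1 UMI, and the other 6 transporters had 0.

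The 764 cells with no type were led in erythroid and plasma cell markers by different mice, with erythroid markers at 117407 and 67699 CPM in mice 1 and 2 and plasma cell markers at 25958 and 15513 CPM in mice 3 and 4. Slc3a2 ranged there from 8.52 to 121 CPM over the 4 mice, and Slc1a5 was at 17.5 to 38.3 CPM.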
